A study of Chlamydomonas reinhardtii with 4 samples.

Results

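The peaks described here are those that 4 H3K27ac ChIP-seq libraries of the unicellular green alga Chlamydomonas reinhardtii had on sequences whose name begins with contig, that is, on pieces of the genome assembly that carry no chromosome number. All peaks on such sequences were taken, whatever their strength, and peaks sharing at least 1 bp were joined across the lists. This gave 542 peaks on 37 contigs, numbered between 18 and 57, and 149 regions out of 15521 in all (0.96%). The 17 numbered chromosomes held 15343 regions. The lists name 56 sequences, and the regions on those of neither kind count in the whole series only.

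Strain CC-5155, whose mating type is plus (mt+), gave a wild type (WT) library and a DNMT1 knockout (dnmt1) library, and strain CC-5325, whose mating type is minus (mt-), gave another of each. All were in the vegetative stage, grown in acetate medium under continuous light and precipitated with the same anti-H3K27ac antibody. There was 1 library per group, no difference between groups was tested, and strain and mating type changed together. How the knockouts were made, and whether each is 1 clone, is not given in the sources used here.

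H3K27ac is the acetylation of a lysine in the tail of histone H3. It is laid down by histone acetyltransferases, removed by deacetylases, and found at active promoters and, in animals, at enhancers. DNMT1 belongs to the cytosine DNA methyltransferase family, whose founding members copy methylation onto new DNA strands after replication. Contigs without a chromosome are commonly the parts of a genome that assembly could not place, often because their sequence is repeated. The lists name no gene or repeat on them, and their sequence and length were not used here.

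The contigs carried a small, similar share of every list. WT mt+ had 134 peaks on contigs, 0.894% of its 14990 peaks (exact 95% binomial interval 0.75 to 1.06%, counting error only). WT mt- had 130 of 15065, or 0.863% (0.721 to 1.02%). The dnmt1 mt+ library had 138 of 14986, or 0.921% (0.774 to 1.09%), and dnmt1 mt- had 140 of 15323, or 0.914% (0.769 to 1.08%). The 4 intervals overlap, but the lists hold largely the same regions, and no difference between libraries in this share was tested. In covered length the contigs took 84.7 kb in WT mt+, 86.8 kb in WT mt-, 84.6 kb in dnmt1 mt+ and 90.2 kb in dnmt1 mt-, between 0.65% and 0.672% of each list. Read depth is unknown, because the lists hold no counts.

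The regions were unevenly spread over the contigs. Contig 24 had 21 regions, contig 36 had 17, contigs 19 and 20 had 13 each, and contig 18 had 6, so that these 5 contigs held 70 of the 149 regions (47%). Another 9 contigs had 1 region and 12 had 2. The region ending farthest along any contig ended at 118764, on contig 18. On 5 contigs the first region began within 1000 bp of the start of the sequence, the nearest at base 85 of contig 55. Positions are counted from 1 in the assembly of the deposited lists, whose build is not given in the sources used here.

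**Figure D1:**
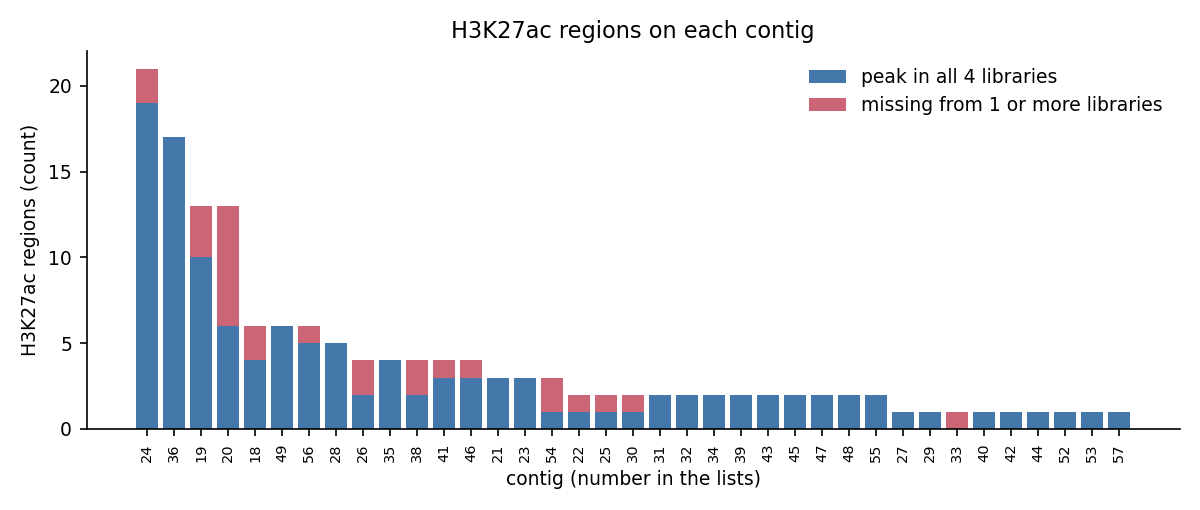
Number of H3K27ac regions on each of the 37 contigs, ordered by that number, split into regions with a peak in all 4 libraries and regions missing from 1 or more. Contig 20 stands out with 7 of its 13 regions missing from a library, while all 17 regions of contig 36 were found in all 4.

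Contig peaks were weaker and narrower than those of the chromosomes in every library. The authors' fold enrichment, the ratio of ChIP over control signal at the summit, had a median on contigs of 3.54 in WT mt+, 3.46 in WT mt-, 3.33 in dnmt1 mt+ and 3.67 in dnmt1 mt-. The pairing of input and ChIP libraries is not given in the sources used here, so values of different libraries are only set side by side. On the chromosomes the medians were 5.67, 5.40, 5.47 and 5.84 in the same order. Each contig median also lay below the lowest median of any of the 17 chromosomes, which was that of chromosome 15 in each list, at 4.94, 4.63, 4.70 and 5.02. Median peak width was 572, 597, 546 and 579 bp on contigs, against 816, 828, 807 and 821 bp on chromosomes.

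Ranked by −log10 q within its own list, the median contig peak stood at the 22.9th percentile in WT mt+, the 24.3th in WT mt-, the 21.7th in dnmt1 mt+ and the 22.1th in dnmt1 mt-. More contig peaks than not lay below the 25th percentile, 55.2% of them in WT mt+ (46.4 to 63.8%), 51.5% in WT mt- (42.6 to 60.4%), 55.8% in dnmt1 mt+ (47.1 to 64.2%) and 56.4% in dnmt1 mt- (47.8 to 64.8%). Peaks above the median of their list made up 20.9%, 20.8%, 19.6% and 15% of contig peaks. The intervals of the 4 libraries overlapped for each of these shares. Peaks of a library share their source, so the intervals treat as independent what may not be.

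**Figure D2:**
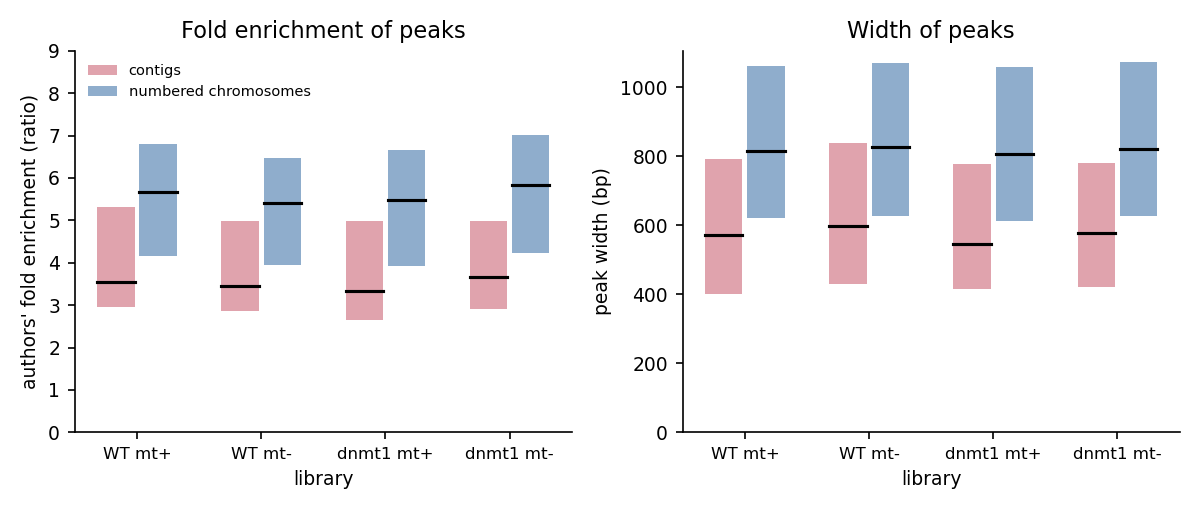
The authors' fold enrichment (left, ratio) and peak width (right, bp) of peaks on contigs and on numbered chromosomes in each of the 4 libraries. Boxes span the 25th to the 75th percentile of peaks and lines mark medians. In every library both contig medians lie below those of the chromosomes.

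Some contigs nonetheless carried peaks above the median strength of their list. In all, 36 regions on 19 contigs had a peak above the median −log10 q of at least 1 list. They were 24.2% of contig regions, against 57.9% of chromosome regions by the same rule. Of the 36, 18 had a peak above the median in all 4 lists. The region with the highest −log10 q was at contig 52, 8744 to 10560, the only region of that contig. Its fold enrichment was 8.07 in WT mt+, 6.15 in WT mt-, 8.23 in dnmt1 mt+ and 7.88 in dnmt1 mt-, and it ranked at or above the 96.8th percentile in every list. It was also among the 3 widest regions, at 1817 bp. The others were at contig 18, 19925 to 21797 (1873 bp; 6.86, 6.32, 7.13 and 4.99 in the order above), and contig 24, 27639 to 29446 (1808 bp; 5.44, 6.25, 6.0 and 6.32). The region of contig 24 was 1 peak of 1769 bp in dnmt1 mt- and 2 separate peaks in each other library. For WT mt+, WT mt- and dnmt1 mt+ the values given are those of the stronger peak, 561, 554 and 565 bp wide. The weaker peak had 4.70, 4.01 and 3.74.

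The 5 shared regions with the highest fold enrichment in their lowest library lay on 4 contigs. Contig 46 held a pair of them. At 14323 to 14951 the fold enrichment was 7.96 in WT mt+, 8.59 in WT mt-, 8.04 in dnmt1 mt+ and 8.37 in dnmt1 mt-, and at 1163 to 2008 it was 7.90, 7.08, 7.17 and 8.84. The region at contig 19, 95320 to 96507, had 7.80, 8.25, 8.37 and 8.67. Those at contig 20, 14101 to 15279 (7.71, 7.29, 8.20 and 8.81), and contig 24, 71961 to 73176 (7.70, 7.0, 7.87 and 8.20), followed. In fold enrichment both dnmt1 values were above both WT values at the regions of contigs 19, 20 and 24 and not at the pair on contig 46. By percentile of −log10 q within each list this held on contigs 20 and 24 but not on contig 19. The region of contig 19 ranked at 83.2 in WT mt+, 92.9 in WT mt-, 91.2 in dnmt1 mt+ and 90.4 in dnmt1 mt-. Other shared regions had the reverse order, such as contig 39, 11323 to 12305 (6.49 and 6.71 in WT, 4.99 and 5.47 in dnmt1). Such orders set side by side libraries whose depths and controls are not given. They were not counted over all shared regions and were not tested.

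At the other end, the 3 shared regions with the lowest fold enrichment in their lowest library lay on contigs 20 and 40. The region at contig 20, 28919 to 29324, had 2.10 in WT mt+, 1.63 in WT mt-, 2.34 in dnmt1 mt+ and 2.19 in dnmt1 mt-. Another region of that contig, at 48881 to 49274, had 1.85, 2.53, 2.35 and 1.77. The region at contig 40, 15499 to 15942, had 2.32, 1.92, 3.0 and 2.90. This last is the only region of its contig.

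Of the 149 contig regions, 122 (81.9%, exact interval 74.7 to 87.7%) had a peak in all 4 libraries. Over all regions of the series the share was 92.5%, and on the numbered chromosomes it was 92.8% (92.4 to 93.2%). Single chromosomes ran from 84.4% (chromosome 15) to 96.0% (chromosome 13), so the contigs together fell below each of them, although their interval includes the value of chromosome 15. The difference was not tested, since regions of a library are not replicates. With any 1 library left out, the share in all remaining 3 was 83.3 to 84.8% on contigs and 93.6 to 94.0% on chromosomes.

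**Figure D3:**
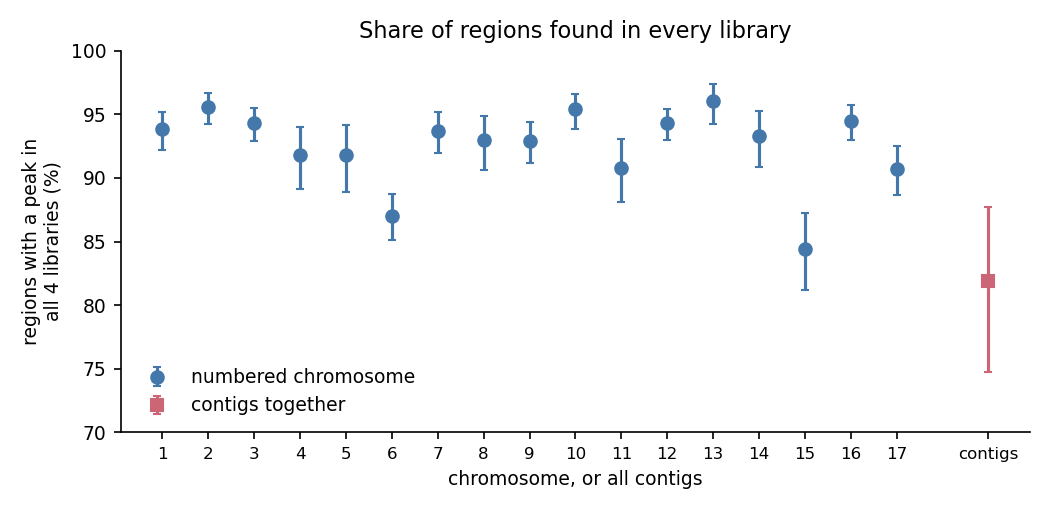
Percentage of H3K27ac regions with a peak in all 4 libraries on each numbered chromosome and on the contigs together, with exact 95% binomial intervals (counting error only). The axis starts at 70%. The contigs, at 81.9%, lie below chromosome 15, at 84.4%, with overlapping intervals.

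Sharing went with strength on contigs as it did on chromosomes. Regions were classed by their highest percentile of −log10 q in any list, a value that a region held by more lists has more chances to raise. From the 25th percentile up, every contig region had a peak in all 4 libraries, 37 of 37 up to the median and 36 of 36 above it (exact intervals from 90.5% and 90.3%). The chromosomes had 97.6% and 99.4% in these classes. Between the 10th and the 25th percentile 42 of 50 contig regions were shared (84.0%, 70.9 to 92.8%), against 93.2% on chromosomes. Below the 10th it was 7 of 26 (26.9%, 11.6 to 47.8%), against 38.9%. A larger part of the contig regions than of the chromosome regions fell in each class under the 25th percentile. It was 17.4% against 9.02% below the 10th and 33.6% against 12.9% between the 10th and the 25th. The part of strength in the lower sharing was not tested.

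Shared contig regions had their summits in nearly the same place in every library. The summits of the 4 libraries lay within 200 bp of each other in 111 of 122 regions (91.0%), with a median spread of 50 bp, against 89.0% and 74 bp on chromosomes, whose regions are wider. The highest fold enrichment of a shared region exceeded its lowest by a median ratio of 1.25 on contigs and 1.28 on chromosomes.

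The 27 contig regions missing from 1 or more libraries were weak and narrow. Over all regions of the series 7.45% were missing somewhere, and on contigs 18.1% were. They measured 212 to 553 bp, with a median of 284 bp against 661 bp for the shared contig regions, and their fold enrichment ran from 1.52 to 4.26. In no list did 1 of them reach the 25th percentile of −log10 q. On the chromosomes 979 of 1108 such regions (88.4%) also stayed under it, while 55 had a peak above the median of a list. Where a library lacks a peak, the signal did not pass the authors' threshold, which does not show that H3K27ac was absent.

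These 27 regions lay on 14 contigs, while on the other 23 every region was shared. Contig 20 held 7 of them, among 13 regions. Leaving that contig out, 20 of 136 contig regions (14.7%, 9.22 to 21.8%) were missing from a library. Contig 19 had 3, contigs 18, 24, 26, 38 and 54 had 2 each, and contigs 22, 25, 30, 33, 41, 46 and 56 had 1 each. Counted by library, WT mt+ lacked a peak at 17 of the 149 regions, WT mt- at 20, dnmt1 mt+ at 13 and dnmt1 mt- at 10. When each list was held to the length of the shortest, an alternative chosen after the data were seen, 145 contig regions remained and these numbers were 13, 20, 9 and 13, so WT mt+ and dnmt1 mt- then lacked equally many. On the chromosomes the order was another, with 657, 565, 720 and 331 regions lacking a peak in the same libraries.

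Peaks of dnmt1 and WT were compared within each strain, which at 1 library per group cannot show whether the mark depends on the methyltransferase. In the mt+ strain 12 contig regions had a peak in dnmt1 and none in WT (8.05%, exact interval 4.23 to 13.6%), against 1.82% over all regions, and 8 had the reverse (5.37%, 2.35 to 10.3%), against 2.23%. In the mt- strain 14 were gained (9.40%, 5.23 to 15.3%), against 2.91%, and 4 were lost (2.68%, 0.736 to 6.73%), against 1.31%. Among single chromosomes these shares were highest on chromosome 15, with 6.003% gained and 5.32% lost for mt+ and 6.003% gained and 3.60% lost for mt-. The contig share of gains lay above that of chromosome 15 in both strains. For losses it was close to that of chromosome 15 in mt+ and below it in mt-. Each contig interval includes the value of chromosome 15. Gains outnumbered losses on contigs in both strains, by 4 and by 10 regions. Among peaks above each list's median −log10 q, where a weaker peak counts as missing by construction, losses led instead, with 4 gains and 5 losses for mt+ and 2 gains and 8 losses for mt-. On the contigs with 5 or more regions the mt+ strain had 4 gains and 6 losses, so the excess of gains in that strain came from contigs with fewer regions. On the numbered chromosomes the same difference, gains less losses, was -63 for mt+ and 234 for mt-.

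The 6 contig regions that both dnmt1 libraries and no WT library held lay on 6 different contigs. They were 4.03% of contig regions (1.49 to 8.56%), against 1.07% over all regions and at most 2.74% on any chromosome (chromosome 15). In the strength class below the 10th percentile, 2 of 26 contig regions had this pattern (7.69%), against 3.54% on chromosomes. Between the 10th and the 25th it was 4 of 50 (8%), against 1.67%. These differences were not tested. The strongest of the 6 was at contig 22, 51200 to 51745, where the fold enrichment reached 3.15 (dnmt1 mt+) and 3.62 (dnmt1 mt-). The contig's remaining region, at 40884 to 41520, was shared, with 3.54 in WT mt+, 3.46 in WT mt-, 3.19 in dnmt1 mt+ and 4.60 in dnmt1 mt-. The dnmt1-only region at contig 25, 50926 to 51248, had 2.29 and 3.36. The shared region of that contig, at 68637 to 69233, had 2.82 (WT mt+), 2.93 (WT mt-), 4.33 (dnmt1 mt+) and 4.0 (dnmt1 mt-).

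The region at contig 19, 23810 to 24093, had 2.82 (dnmt1 mt+) and 2.66 (dnmt1 mt-). Contig 33 carried peaks in the dnmt1 libraries alone, at 21135 to 21567, with 1.97 and 2.29. It was the only contig without a peak in all 4 libraries, and that region was its only one. The last of these regions were at contig 30, 17598 to 17845 (1.90 and 2.09), and contig 26, 14129 to 14649 (1.93 and 1.58). The highest percentile of −log10 q that any of the 6 reached in a dnmt1 list was 18.1, whereas 35 of the 160 regions of the same pattern on chromosomes had a peak above the median of a list.

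The reverse pattern, a peak in both WT libraries and in neither dnmt1 library, was found at 4 contig regions (2.68%, 0.736 to 6.73%), against 0.264% over all regions and at most 0.858% on any chromosome. Contig 38 held 2 of its 4 regions in this pattern. They were at 16120 to 16655, with 2.29 (WT mt+) and 2.15 (WT mt-), and at 25556 to 25925, with 2.33 and 2.37. The shared region between them, at 22673 to 23636, had 5.77, 5.74, 5.08 and 5.30 in WT mt+, WT mt-, dnmt1 mt+ and dnmt1 mt-. The others were at contig 24, 4472 to 4765 (2.16 and 1.79), and contig 20, 88112 to 88437 (1.71 and 1.78). All 4 stayed at or below the 4.23th percentile of the WT lists. In the strength class below the 10th percentile they were 15.4% of contig regions, against 2.53% for this pattern on chromosomes. The difference was not tested. Requiring at least 10 for −log10 q left 0 regions of this pattern.

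No contig region had the mating type pattern. Neither the pattern of both mt+ libraries alone nor that of both mt- libraries alone was seen at any of the 149 regions, which allows a share of up to 2.01% for each (3 counts, counting error only), or 2.45% as the upper end of the exact interval. Over all regions the shares were 0.193% and 0.812%, both within these limits, so at this number of regions the contigs cannot be told apart from the whole in these patterns. On the chromosomes 15 and 126 regions had these patterns (0.0978% and 0.821%), led by chromosome 6 for the mt- pattern, with 4.98% of its regions. The whole series had 30 regions of the mt+ pattern, and those not on chromosomes lay on sequences that are neither chromosomes nor contigs.

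A further 5 contig regions were missing from exactly 1 library (3.36%), against 2.09% over all regions. The highest was at contig 26, 46224 to 46505, with 3.30 in WT mt+, 4.26 in dnmt1 mt+ and 4.0 in dnmt1 mt- and no peak in WT mt-. WT mt- also lacked contig 20, 52323 to 52637, where the other libraries had 2.46, 2.19 and 2.37. WT mt+ lacked contig 18, 118212 to 118764 (1.62 in WT mt-, 1.87 in dnmt1 mt+ and 1.74 in dnmt1 mt-), and contig 54, 10863 to 11168 (2.01, 1.52 and 1.92). The dnmt1 mt+ library lacked contig 20, 72385 to 72819, where WT mt+ had 2.10, WT mt- had 2.08 and dnmt1 mt- had 2.71. Just 1 region had a crossed pair, which no factor of the design predicts. It was at contig 18, 95675 to 95918, with 2.61 in WT mt+ and 3.46 in dnmt1 mt-. This was 0.671% of contig regions, against 0.49% over all and up to 2.23% on chromosome 15.

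Peaks of 1 library alone made up 11 contig regions (7.38%), against 2.53% over all regions. The dnmt1 mt- library had 5 of them, at contig 20, 82922 to 83141 (2.51) and 8136 to 8371 (2.14), contig 19, 89376 to 89624 (2.04), contig 41, 3417 to 3696 (2.0), and contig 24, 20601 to 20862 (1.75). The dnmt1 mt+ library had 4, at contig 20, 45384 to 45743 (2.84) and 32798 to 33023 (2.30), contig 46, 7820 to 8073 (2.12), and contig 54, 6647 to 6898 (1.72). WT mt+ had 2, at contig 19, 7196 to 7478 (3.17), and contig 56, 8737 to 8948 (1.96), and WT mt- had 0. Contig 20 thus held 4 of the 9 regions found in 1 dnmt1 library alone. In the order dnmt1 mt-, dnmt1 mt+, WT mt+ and WT mt-, such regions were 3.36%, 2.68%, 1.34% and 0% of contig regions. On chromosomes the shares were 0.952%, 0.228%, 0.528% and 0.743% in the same order. Differences between libraries were not tested.

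**Figure D4:**
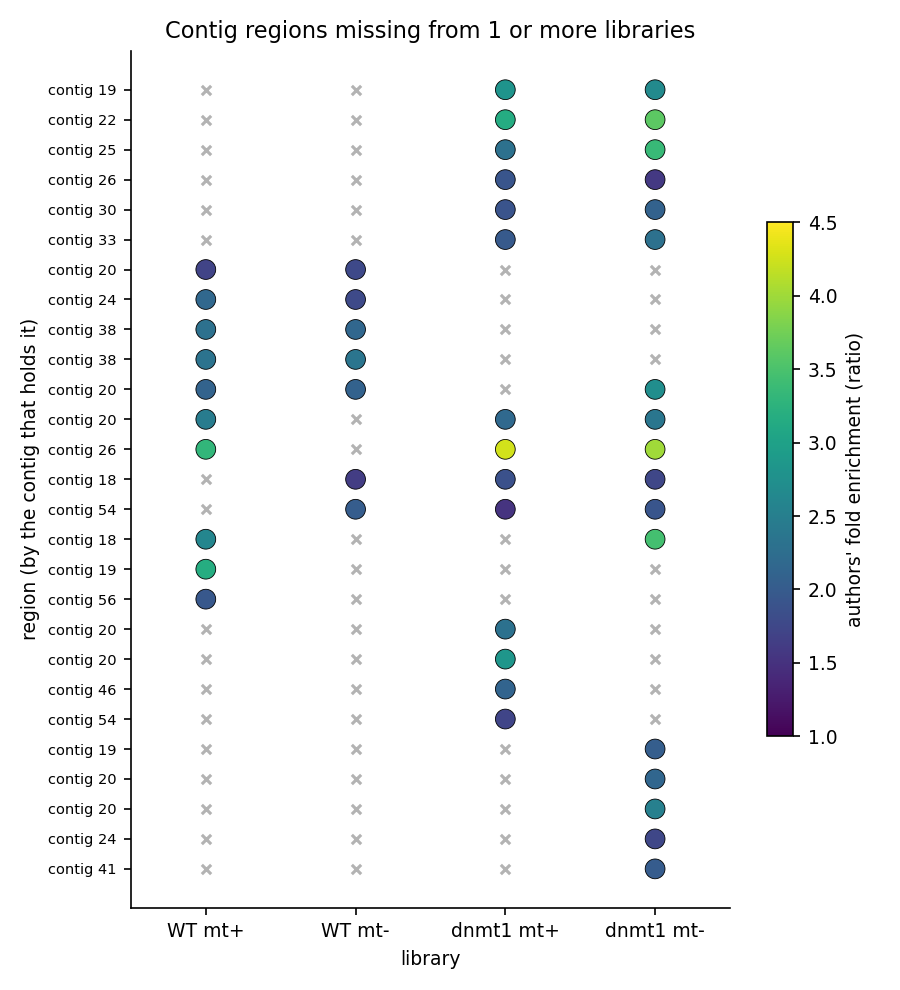
The 27 contig regions missing from 1 or more libraries, 1 row each, named by the contig that holds it. A filled circle marks a peak, coloured by the authors' fold enrichment (ratio), and a grey cross marks a library without one. The top 6 rows are the regions of both dnmt1 libraries and the next 4 those of both WT libraries.

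The regions of some contigs followed each other at even distances, a feature picked out after the positions were seen. Contig 36 was the clearest case. All its 17 regions had a peak in all 4 libraries, although each ranked below the 25th percentile of −log10 q in every list, with fold enrichments between 2.24 and 3.62. Over the first 6 peaks, from base 521 to 6978, neighbouring summits were 1088 to 1195 bp apart in WT mt+, 1029 to 1243 bp in WT mt-, 1041 to 1179 bp in dnmt1 mt+ and 1040 to 1183 bp in dnmt1 mt-. From the sixth peak on the spacing changed. Over the next 10 intervals, to base 25584, it was 1812 to 1923 bp in WT mt+ (median 1879), 1833 to 1895 bp in WT mt- (1868), 1790 to 1895 bp in dnmt1 mt+ (1864) and 1845 to 1946 bp in dnmt1 mt- (1867).

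The 2 distances recurred on other contigs. On contig 24, 7 consecutive peaks between 32309 and 39933 had median summit spacings of 1168 bp in WT mt+, 1150 bp in WT mt-, 1198 bp in dnmt1 mt+ and 1178 bp in dnmt1 mt-, near the shorter distance. On contig 56 the first 4 peaks, between 1305 and 7766, were 1866 to 1869 bp apart in WT mt+, 1861 to 1874 bp in WT mt-, 1857 to 1873 bp in dnmt1 mt+ and 1862 to 1869 bp in dnmt1 mt-, near the longer one. The next region of contig 56, at 8737 to 8948, was the WT mt+ peak named above. On contig 49, 3 peaks between 9744 and 13969 had median spacings of 1839, 1829, 1839 and 1847 bp, from 2 spacings per list. The other spacings of contig 49 were longer, at 3012 to 5553 bp. These stretches of contigs 49 and 56 were picked after their values were seen and are too short for the run rule given below. On each of these 4 contigs the ranges of spacing overlapped between WT and dnmt1 and between the strains.

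**Figure D5:**
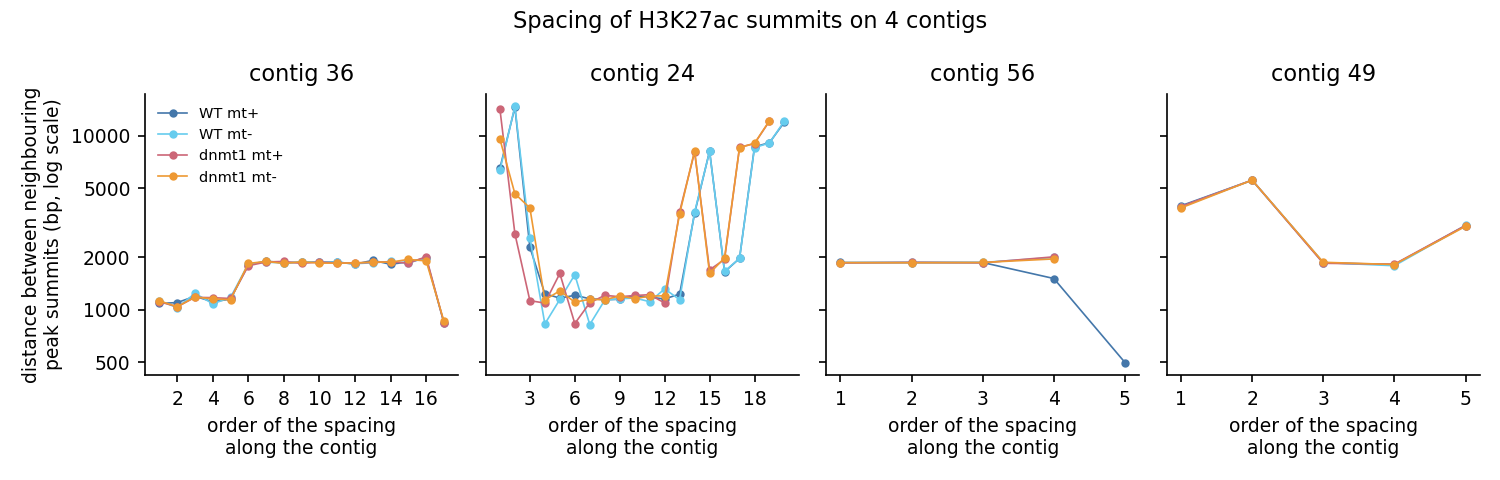
Distance between neighbouring H3K27ac summits (bp, log axis) in order along contigs 36, 24, 56 and 49, with 1 line per library. A list with 1 peak more or fewer shifts the order by 1. Contig 36 shows a plateau near 1100 bp followed by one between 1790 and 1946 bp before its last intervals, and the 4 libraries run together.

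Even spacing was not limited to contigs. A run was defined as at least 5 consecutive regions whose longest distance between region middles was at most 1.2 times the shortest, a rule set after these positions were seen. Contigs had 3 runs with 23 regions (15.4% of 149), on contigs 24 and 36, and all 23 were shared by the 4 libraries. The numbered chromosomes had 82 runs with 665 regions (4.33%). Of the chromosome runs 43 had a median distance from 1100 to 1300 bp and 5 from 1800 to 2000 bp, while 32 had 2000 bp or more. The longest was on chromosome 1, from 7940500 to 7965771, with 22 regions at a median distance of 1162 bp, all of them shared. Contig 36 held 16 of the 23, and without it 7 of 132 contig regions (5.30%) were in runs. The difference from the chromosomes was not tested. Neighbouring regions were a median of 3829 bp apart on contigs (112 distances) and 5763 bp on chromosomes (15326 distances). Distances on a contig cannot exceed its length, which was not used here, and the evenly spaced runs enter the contig median. The sources used here do not say how reads that match several places were treated, and the part of such reads in the weak, evenly spaced peaks was not tested.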

How the data were processed

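H3K27ac ChIP-seq peak lists of 4 libraries were used. Per the labels' protocols, cells were fixed with formaldehyde, chromatin was sonicated, and amplified libraries were size selected. Tools named in the submitters' processing notes, with no options or order, are deepTools 3.5.1, MACS2 2.2.7.1, Picard, Bowtie2 2.4.2 and Trim Galore 0.6.7. Per the labels, H3K4me1 libraries of another series used the same input. The genome build is not given in the sources used here.

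The authors deposited 1 narrowPeak list per library, so each library was called by itself. A deposited row holds a score of 10 times −log10 q, the fold enrichment ratio, −log10 of the q-value and of the p-value, and where the summit lies. The lowest −log10 q was 2.02 in WT mt+, 2.09 in WT mt-, 2.17 in dnmt1 mt+ and 2.01 in dnmt1 mt-. These values depend on depths that the lists do not give, so they describe and rank peaks within a list. The score was not used.

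Peaks sharing 1 bp or more were merged over all lists. A region with several peaks of a library takes the values of the peak with the highest −log10 q. Intervals of shares are exact (Clopper-Pearson, 95%) and reflect counting error alone. No test between conditions was run: each group has 1 library, and the peak values depend on depths and controls that the lists do not give. No contig interval was identical in any pair of lists. The gene table at hand describes another assembly and was not used. The regions named are all those missing from a library, the 5 shared regions with the highest and the 3 with the lowest fold enrichment in their lowest library, and the 3 widest. The neighbours of dnmt1-only and WT-only regions, contig 49 and 56, and the chromosome runs were named after their values were seen. The members and rules were chosen with earlier results of these data known. Counting was checked on simulated lists. Software was matplotlib 3.10.9, scipy 1.17.1, pandas 2.3.3, numpy 2.4.6 and Python 3.11.15.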

Additional observations from a re-analysis of the deposited data

How the results depend on the processing

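The 36 results were recomputed under alternatives, giving 195 values, and 140 of them lay within 1.5 times the main count or within the 95% interval of the main share or median. Every value did so when the shorter peak had to be covered to 50% or more, when peaks up to 500 bp apart were merged and when contig 24 was left out. The alternatives to the 1.2 rule for even runs were chosen after the data were seen. The 3 contig runs became 2 with a ratio of at most 1.1 and 4 with 1.5, and the chromosome runs became 54 and 282. Without contig 36, left out after the data were seen, contig regions in runs numbered 7. The cause of the other changes was not tested, except where fewer peaks or contigs enter by construction.

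Where −log10 q had to reach 10, regions of both WT libraries alone fell to 0, those of both mt- libraries alone were 1 and crossed pairs 3. With lists of equal length, 2 regions were held by both WT libraries alone. With summits within 200 bp, 74.5% of contig regions were in all 4 libraries, 1 was of both mt+ libraries alone, 3 were crossed and 9 were lost in the mt- strain.

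On contigs with 5 or more regions there were 87 regions, 72 in all 4 libraries and 15 missing from a library. Peaks numbered 81 in WT mt+, 77 in WT mt-, 79 in dnmt1 mt+ and 82 in dnmt1 mt-, or 0.542%, 0.513%, 0.529% and 0.537% of the lists, and the median fold enrichment of dnmt1 mt- was 3.29. For mt+ there were 4 gains and 6 losses, so losses then led, and for mt- 7 gains and 2 losses. Both dnmt1 libraries alone held 1 region and both WT libraries alone 2.

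Dropping each list's peaks up to its median −log10 q, so that a peak under the median counts as missing by construction, left 36 regions, 18 (50.0%) in all 4 libraries. Gains and losses were 4 and 5 in the mt+ strain and 2 and 8 in the mt- strain. Both dnmt1 libraries alone held 0 regions, both WT libraries alone 2, both mt+ libraries alone 1 and crossed pairs 0. In the order WT mt+, WT mt-, dnmt1 mt+ and dnmt1 mt-, contig peaks numbered 28, 27, 27 and 21 (0.374%, 0.358%, 0.36% and 0.274% of the lists), with median fold enrichments of 6.59, 6.25, 6.58 and 7.19 and median widths of 927, 926, 892 and 999 bp.

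No paired analysis was possible because the labels give no replicate numbers and the counts come from no test. Gains and losses were counted within each strain. Read depth is unknown, which limits what a missing peak shows.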
